A study of Homo sapiens with 18 samples.

Results

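Introns whose excised share dips are introns that look more completely spliced in RNA labelled for 7.5 min than in RNA labelled for 30 min, before their excised share is high again at 60 min. The excised share of an intron is the fraction of the sequencing reads across its splice junctions that show it removed, deposited by the authors for each labelling time as the mean of 3 replicates. An intron was chosen when its excised share was at least 0.5 at 60 min and at least 0.05 lower at 30 min than at 7.5 min. Of 21140 introns at or above 0.5 at 60 min, 2374 met the rule, which is 11.2%, and the authors' table lists 21782 introns in all. The 2374 introns lay in 1056 of 4112 genes (25.7%). Another 642 introns were below 0.5 at 60 min and were left out, 373 of them with a fall of the same size. The introns were thus chosen by their measured excised shares at 7.5, 30 and 60 min, and those values are described here and not tested.

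The series consists of 18 RNA libraries of HEK293, a line of human embryonic kidney cells. Cells were given 500 µM 4-thiouridine (4sU), a uridine analogue that new transcripts take up, and labelled RNA was biotinylated and bound to streptavidin. Total RNA without that selection gave 3 libraries, 1 made by poly(A) selection, 1 by RNase H depletion and 1 by Ribo-Zero depletion of ribosomal RNA. Labelled RNA gave 3 libraries at each of 7.5, 15, 30, 45 and 60 min. The title of the series names a sorting of coding and non-coding genes by how their RNA is made, processed and lost. The labels do not say whether replicates are separate cultures, and p-values then measure only how these libraries vary, which may be technical. The spread of total RNA also holds the 3 methods. Gene levels are the authors' TPM (transcripts scaled to the same total in every library), for mature (spliced) and primary (unspliced) RNA of each gene, and carry no read depth.

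Introns are cut out by the spliceosome during transcription or soon after it, and the flanking exons are joined. RNA labelled for a few minutes should hold many molecules caught before splicing, and RNA labelled for longer holds more that have been spliced, so the excised share usually goes up with labelling time. Messenger RNAs also differ in how long they last: those for ribosomal proteins, respiratory chain subunits and other housekeeping machinery are known to be long-lived, while those for many regulators are short-lived.

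The 12 spliced junctions below belong to the 10 introns with the largest falls, at most 1 per gene, and to the introns with the largest falls among respiratory chain (COX4I1) and proteasome (PSMA7) genes. A read across such a junction is what counts an intron as excised. Each is 30 bases of spliced transcript from GENCODE release 29 (GRCh38), 5′ to 3′ on the gene's own strand, with the last 15 bases of the upstream exon in lower case and the first 15 bases of the downstream exon in capitals. Both exons are coding at all 12 junctions.
IMPDH2: gcattacgcaggaagTGCTGGCCTGTGGGC
DCXR: ttggcaagtttgctgAGGTAGAGCACGTGG
POLD2: caaagctggttacggGGACTGTCCTGGCTG
POLR2G: actcaggtcaacaagGTTGGACTCTTCACA
RPS16: acgctacagtacaagCTGCTGGAGCCAGTT
DYNLL1: gctcatatcaagaagGAATTTGACAAGAAG
JTB: tctaatttccgggctAAAACTACCCCTGAG
PRMT1: gcctgcctcataaagGAGGTGGACATCTAT
TUBG1: gtggaccccacccagGTCCACAAGAGCTTG
SHMT2: ttatcctggcaagagATACTATGGGGGAGC
COX4I1: ggcagaagcactatgTGTACGGCCCCCTCC
PSMA7: gccagtctgaagcagCGTTATACGCAGAGC

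A single library stood apart: 45 min replicate 2 had 15159 genes with mature TPM above 0, and the other 2 of that group 18971 and 20407. No pair of libraries had identical values. In total RNA 7 of 9 listed HEK293 markers, such as VIM and KRT8, averaged at least 1 TPM (NEFM and PAX2 did not), and so did 4 of 16 markers of other cells (HBA1, ACTA2, COL1A1 and RBFOX3), with HBB, INS, CD3E and COL1A2 at 0 in all 3 libraries. Summed over the list, HEK293 markers had 767 to 1516 TPM in a total library and the markers of other cells 17.5 to 51.0 TPM. The part of other cells in the results was not tested. Values that moved most without 45 min replicate 2 are given with and without it.

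Among the 2374 introns the median excised share was 0.712 after 7.5 min of labelling, then 0.590 (15 min), 0.55 (30 min), 0.692 (45 min) and 0.751 (60 min). The other 18766 introns had medians of 0.528, 0.583, 0.719, 0.822 and 0.855 at the same times. The chosen introns began above the rest and were below them from 30 min on, an order that the rule fixes in part at 7.5 and 30 min. Among the 8365 other introns that also began at 0.55 or more, the median was 0.797 at 30 min, against 0.654 at 7.5 min, a direction that leaving out the chosen introns fixes in part. The share chosen went up with the start: 3.35% of introns below 0.55 at 7.5 min, then 9.82% (0.55 to 0.65), 18.7% (0.65 to 0.75), 32.0% (0.75 to 0.85) and 52.7% of those at 0.85 or more. The rule asks for a fall from 7.5 to 30 min, so this rise is partly built in. A lowest value at 30 min is favoured in the same way. The lowest of the 5 values was at 30 min in 1430 of the chosen introns (60.2%) and at 15 min in 810 (34.1%). The 60 min value was at or above the 7.5 min value in 1566 (66.0%), and in the other 808 it had not come back to it.

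**Figure D1:**
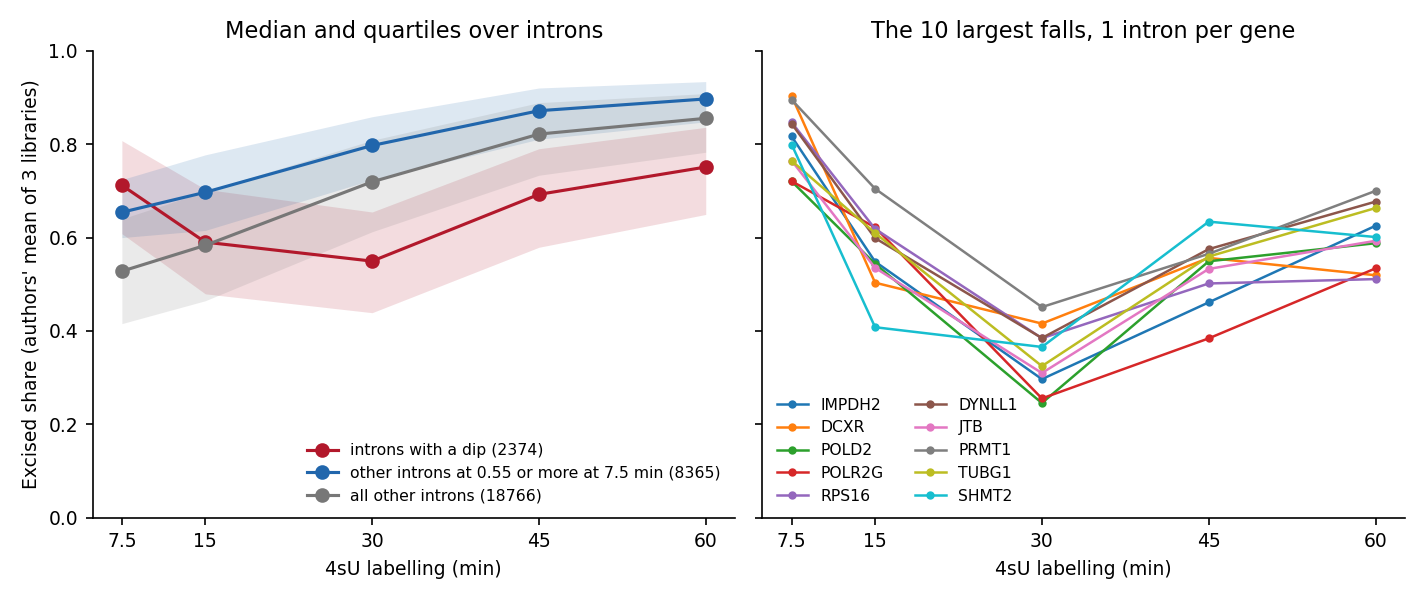
Excised share against labelling time in minutes. Left, medians (points) and quartiles (bands) over the 2374 introns with a dip, the 8365 other introns at 0.55 or more at 7.5 min and all 18766 other introns; the red line is lowest at 30 min, with a median of 0.55, while both other lines go up throughout. Right, the 10 introns with the largest falls, 1 line each, all lowest at 30 min.

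The fall, defined as the excised share at 7.5 min minus that at 30 min, had a median of 0.128 and reached 0.519. It was at least 0.1 in 1528 introns, at least 0.2 in 590, at least 0.3 in 158 and at least 0.4 in 27. Just inside the limit of 0.05 lay introns of XRCC1 (0.0501), TYK2 (0.0501) and NDUFS1 (0.0501), and just outside it introns of NUP188 (0.0499), ARF4 (0.0499) and TRAP1 (0.0499). The limit therefore cuts through a continuous range. The authors kept introns with more than 5 junction reads in all 3 replicates, but the table gives neither read counts nor replicate values, so no error can be set on a single intron's share.

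The intron with the largest fall was in IMPDH2, which encodes an enzyme of guanine nucleotide synthesis. It spans 1054 nt at chr3:49062703-49063756 (hg19, minus strand), and its excised share was 0.816 after 7.5 min, 0.548 after 15 min, 0.297 after 30 min, 0.461 after 45 min and 0.625 after 60 min. An intron of only 127 nt in DCXR, a carbonyl reductase gene, at chr17:79993940-79994066 (minus strand), had 0.903, 0.503, 0.416, 0.556 and 0.519. Here the largest step was already made by 15 min. The intron of POLD2, a subunit of DNA polymerase delta, at chr7:44156847-44157217 (minus strand), had 0.720, 0.544, 0.246, 0.549 and 0.588. That of POLR2G, an RNA polymerase II subunit, at chr11:62530499-62532653 (plus strand), had 0.721, 0.622, 0.256, 0.384 and 0.534. Both had their lowest value at 30 min and were still below their start at 60 min.

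RPS16, a protein of the small ribosomal subunit, has its intron at chr19:39924402-39926246 (minus strand), with 0.847, 0.619, 0.384, 0.502 and 0.511 over the 5 times. The intron of DYNLL1, a dynein light chain gene, at chr12:120934357-120935875 (plus strand), had 0.844, 0.599, 0.385, 0.575 and 0.677. RPS16 stayed far below its start at 60 min, and DYNLL1 came nearer to it. JTB, which encodes a membrane protein, had 0.765, 0.535, 0.310, 0.533 and 0.593 for its intron at chr1:153948382-153949168 (minus strand). PRMT1, the main arginine methyltransferase, had 0.895, 0.705, 0.451, 0.565 and 0.700 at chr19:50188295-50189349 (plus strand). In JTB and PRMT1 too, 30 min was the low point. TUBG1, which encodes gamma-tubulin, had 0.764, 0.610, 0.325, 0.559 and 0.663 for an intron of 83 nt at chr17:40766431-40766513 (plus strand). SHMT2, a mitochondrial enzyme of one-carbon metabolism, had 0.799, 0.408, 0.366, 0.634 and 0.601 for an intron of 152 nt at chr12:57625344-57625495 (plus strand). In none of these 10 introns did the 60 min value reach the 7.5 min value.

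Many host genes held several such introns. Of the 1056 host genes, 516 had 1, 316 had 3 or more and 109 had 5 or more. FASN, the fatty acid synthase gene, had 32 of its 37 introns at or above 0.5 at 60 min among them. Counts per gene are out of such introns, which need not be all introns of the gene. AP2M1, an adaptor subunit of clathrin-coated vesicles, had 11 of 11, FARSA, a phenylalanyl-tRNA synthetase subunit, 10 of 10, PSMD2, a subunit of the proteasome's regulatory particle, 12 of 13, and the glycolytic gene ALDOA 9 of 10. In KHSRP, which encodes an RNA-binding protein, 12 of 19 introns were chosen, in the nucleolar gene NOC2L 11 of 15, in the transcriptional co-repressor gene TRIM28 9 of 14, and in the ion channel gene PIEZO1 9 of 15. In 506 host genes with 5 or more introns at or above 0.5 at 60 min, the median share of introns chosen was 24.3%, and 43 of them had every intron chosen. Introns of 1 gene share their reads' source and are not independent, and 149 of the chosen introns (6.28%) share a splice site with another intron of the table, against 5.85% of the others.

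Cytosolic ribosomal proteins made up the family with the highest share of chosen introns: 217 of 282 (77.0%), in all 65 of its genes with introns at or above 0.5 at 60 min. In 41 of these genes every such intron was chosen, though some had only 1, such as RPL41 and RPS29. The share over all introns was 11.2%. For the subunits of the respiratory chain encoded in the nucleus, which carry electrons and make ATP in mitochondria, it was 75 of 155 (48.4%), in 37 of 47 genes. The intron of COX4I1 had 0.753, 0.571, 0.322, 0.485 and 0.528 over the 5 times, at chr16:85839471-85840343 (hg19, plus strand). Mitochondrial ribosomal proteins had 33 of 94 (35.1%). The largest fall among them, in MRPL4, was 0.308. The proteasome, the cell's main protein-degrading complex, had 85 of 207 (41.1%), with the largest fall in PSMA7, a subunit of its catalytic core, at chr20:60714254-60714836 (minus strand): 0.726, 0.579, 0.293, 0.547 and 0.611. Each of these 4 families lay well above the share over all introns.

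Genes for the cytoskeleton and for metabolism were also above it. The list of actin, actin-related and myosin light chain genes had 30 of 68 introns (44.1%), led by ACTN4, an actin cross-linker, with a fall of 0.419. The list of alpha- and beta-tubulins and tubulin cofactors had 8 of 22 (36.4%), 5 of them in the cofactor gene TBCB. That list left out the gamma-tubulin gene TUBG1, in which 7 of 7 introns were chosen. Glycolytic enzymes had 31 of 97 (32.0%), with a fall of 0.330 in PKM, the pyruvate kinase of most tissues. The ubiquitin-activating and ubiquitin-conjugating enzymes had 19 of 65 (29.2%), led by UBE2J2 with a fall of 0.328. Subunits of the 3 nuclear RNA polymerases had 29 of 123 (23.6%).

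Other housekeeping families were nearer to the share over all introns or below it. The core spliceosome list (SNRP, SF3, LSM, PRPF and U2AF symbols) had 46 of 271 (17.0%). It was led by U2AF2, which helps to recognise the 3′ splice site, with a fall of 0.390. SNRNP symbols were not on that list, such as SNRNP70, with 4 of 9 introns chosen. The aminoacyl-tRNA synthetases had 37 of 226 (16.4%), translation factors 48 of 399 (12.03%), the vesicle transport list 26 of 258 (10.1%), and the chaperonin, which folds actin and tubulin, 10 of 101 (9.90%). Heat shock proteins and their partners had 11 of 181 (6.08%), the HNRNP proteins, which coat new transcripts, 5 of 175 (2.86%), SR splicing factors 1 of 48 (2.08%), and genes with ZNF symbols, mostly zinc finger transcription factors, 2 of 187 (1.07%). A few small lists held few introns: snoRNA host transcripts 2 of 24, histone variants 3 of 6 (all in H3-3A) and HOX genes 1 of 4. Genes on no list made up most of the chosen introns, 1655 of 18147 (9.12%).

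**Figure D2:**
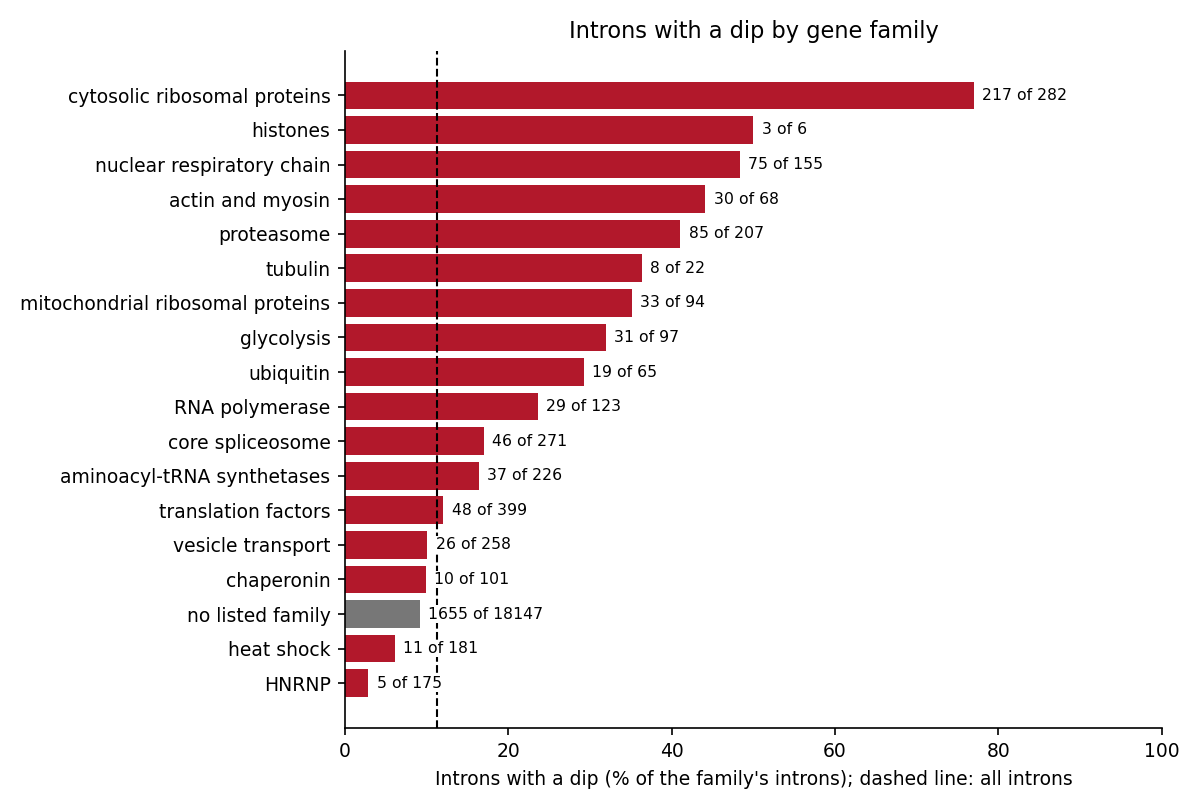
Introns with a dip as a percent of each family's introns at or above 0.5 at 60 min, for families with at least 3 of them; numbers beside the bars are counts, and the dashed line is the share over all introns, 11.2%. Ribosomal protein genes stand at 77.0% and HNRNP genes at 2.86%.

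The authors' degradation rate per gene, estimated with the program INSPEcT and deposited without a unit, was low where introns dipped. Its median over the 2374 introns was 0.428 times that over the other 18766, and 8.94% of the others lay below the median of the chosen introns. Counted once per gene the ratio of medians was 0.455, among introns at 0.55 or more at 7.5 min it was 0.424, and without ribosomal protein genes 0.462. With the introns in 10 equal bins by degradation rate, 47.6% of the bin with the lowest rates were chosen, then 18.6%, 13.1%, 8.08%, 7.52%, 4.93%, 4.13%, 3.27%, 2.61% and 2.27% in the bin with the highest rates. The share thus went down at each step. In the first bin the median excised share itself was 0.641 at 30 min, against 0.688 at 7.5 min, and in the last bin 0.722 at 30 min, against 0.512 at 7.5 min. Because INSPEcT used the same labelled libraries as the excised shares, this relation is a description and not independent evidence.

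A second measure of stability, from total RNA, uses no library of the rule but ranks the genes almost as the degradation rate does (Spearman's rho -0.97 across 4112 genes). RNA that lasts long builds up in total RNA relative to what was made in a short time, so the mature TPM of a gene in total RNA over that in 45 min labelled RNA is high for stable RNAs. Of 10 equal bins of introns by this ratio, the highest, with 2112 introns, held 1012 of the chosen introns (47.9%), and the lowest, with 2115 introns, held 46 (2.17%). With each total library taken alone, the highest bin held 49.6% chosen introns with the poly(A) library, 43.4% with the RNase H library and 46.5% with the Ribo-Zero library. Across the 21140 introns, Spearman's rho between this ratio and the change in excised share (30 min minus 7.5 min) was -0.39, and -0.37 without ribosomal protein genes (20858 introns). For the degradation rate it was 0.37. Introns of a gene share its ratio and all points share the libraries, so these are descriptions.

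For the synthesis rate, from the same program, the median over the chosen introns was 1.05 times that over the others, and 0.958 times without ribosomal protein genes. Counted once per gene it was 1.23 times (1.18 without ribosomal protein genes), and among introns at 0.55 or more at 7.5 min 1.13 times. For this rate rho with the change in excised share was 0.05, and -0.06 among the introns at 0.55 or more. In 10 bins by synthesis rate the percent chosen lay between 8.65% and 17.4%, highest in the bin with the highest rates. Not every host gene had a low degradation rate. FASN, with 32 chosen introns, stood at percentile 45.8 of the 4112 genes by degradation rate, and PIEZO1 at percentile 75.8, whereas AP2M1 stood at 6.10 and ALDOA at 4.13.

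**Figure D3:**
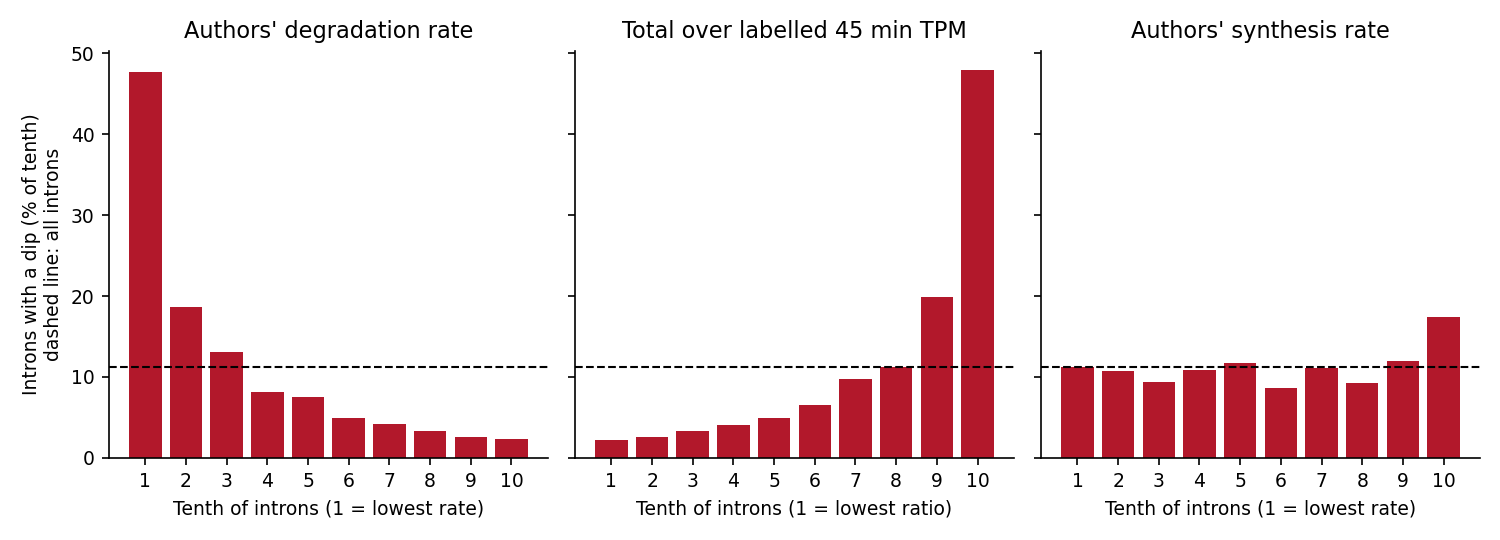
Percent of introns with a dip (bars) in each of 10 equal bins of the 21140 introns, ordered from low to high by the authors' degradation rate, by the ratio of mature TPM in total RNA to that in 45 min labelled RNA, and by the authors' synthesis rate; the dashed line is 11.2%, the share over all introns. The bars go from 47.6% to 2.27% for degradation and from 2.17% to 47.9% for the total RNA ratio, while those for synthesis stay between 8.65% and 17.4%.

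The chosen introns also had features of sequence and position that the rule did not use. They were shorter (median 679 nt, quartiles 211 and 1845 nt, against 1559 nt, quartiles 594 and 3830 nt, in the others), and richer in GC (median 51.8% against 40.5%). They lay a median of 4945 nt from the transcription start and 6583 nt from the polyadenylation site, against 21135 and 26331 nt for the others. The MaxEnt scores of the 5′ splice site (8.69 against 8.78) and of the 3′ splice site (9.03 against 8.70) overlapped widely. Of introns under 150 nt, 21.2% were chosen, and of those of 10000 nt or more, 2.48%. By chromosome the share was highest on chromosome 19, with 466 of 1355 introns (34.4%), and lowest on chromosome 13 (3.70%).

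GC content and stability each sorted the introns within classes of the other. Among introns of 50% GC or more, 915 of 1752 (52.2%) in the highest of 3 bins by the total RNA ratio were chosen, and 119 of 1159 (10.3%) in the lowest bin. Among introns under 40% GC it was 195 of 2495 (7.82%) in the highest bin and 26 of 3314 (0.785%) in the lowest. The same order held by length: 36.1% against 5.74% under 500 nt, and 16.5% against 1.70% at 2000 nt or more. Spearman's rho between GC content and the change in excised share was -0.46 across the 21140 introns, beside -0.39 for the total RNA ratio. Low GC content thus went with a larger excised share at 30 min relative to 7.5 min. The part of GC content in the dip was not tested.

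Within a gene these features differed little between chosen introns and the rest. In 712 genes with both kinds, the median difference (chosen minus other introns of the same gene) was 0.03 in log10 length, 1.03 percentage points in GC content and -0.15 in the 5′ splice site score. The chosen introns were the richer in GC in 412 of the 712 genes. At 45 min, a time the rule did not use, the median difference in excised share was -0.0774, with the chosen introns lower in 528 of 712 genes. At 15 min it was -0.0515, with the chosen introns lower in 457 of 712.

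Some of the introns carry the gene of a small RNA. Of 128 introns with a snoRNA 38 were chosen (29.7%), but 29 of these were in ribosomal protein genes, where introns with a snoRNA (29 of 39, 74.4%) and those with no small RNA (184 of 238, 77.3%) hardly differed. In all other genes 9 of 89 snoRNA introns were chosen (10.1%), near the 10.3% of introns with no small RNA. Introns with a miRNA outside ribosomal protein genes were chosen in 22 of 77 cases (28.6%).

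The 15 and 45 min libraries were not used by the rule and hold the way back up. The excised share was lower at 45 min than at 15 min in 519 chosen introns (21.9%), in 734 of the other introns (3.91%), and in 534 of the other introns that began at 0.55 or more (6.38%). The median of the difference (45 min minus 15 min) was 0.0992 for the chosen introns and 0.219 for the others. Among the 590 introns with a fall of at least 0.2, 235 were lower at 45 min (39.8%). These are single means of 3 replicates for each time, so this difference has no replicate check.

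At the level of genes the same times do have replicates. Family counts from here on cover only the genes that host a chosen intron, such as 37 of 47 respiratory chain and 20 of 49 translation factor genes. The other genes of a family were not counted. Mature RNA was lower at 45 min than at 15 min in 35 of 65 ribosomal protein and 12 of 37 respiratory chain host genes. It was higher in none of these host genes. Of 1056 host genes 1054 were tested, the other 2 being HSPE1-MOB4 and a gene with no symbol, and the filter hardly depended on the group: 1055 had a mean of at least 1 TPM at 45 min and 1052 at 15 min. By limma, fitted on log2(TPM + 1) of all genes in the 15 labelled libraries with Benjamini-Hochberg adjustment at 0.05, 72 host genes (6.83%) fell, where 1.82% of the 16739 genes tested did, and 87 (8.25%) rose, where 7.13% of all genes did. Among the 3055 other genes with introns, 24 (0.786%) fell and 377 (12.3%) rose. The median log2 change was 0.10 in host genes and 0.21 over all genes. TPM are shares of a library, so a lower TPM can also mean more RNA of other genes. A higher mature TPM can likewise come with a smaller share of primary RNA in the library. With TPM rescaled over mature transcripts (chosen after seeing the data), 29 host genes rose and 89 fell. The median log2 change was then -0.08 in host genes and 0.04 over all genes.

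The median log2 change was -0.81 over the 65 ribosomal protein genes and -0.69 over the 37 respiratory chain host genes. Without ribosomal proteins, 37 of 989 host genes fell (3.74%). Both families had 0 host genes higher with quantile and median-ratio scaling too. Of 24 proteasome host genes, 0 passed in either direction as deposited (median 0.11), while 2 were lower with median-ratio scaling (median -0.19) and 1 with quantile normalization. Of 20 translation factor host genes 5 rose and 0 fell, with 0 passing under median-ratio scaling. Genes with larger dips had less mature RNA more often. Of the 344 tested genes with a fall of 0.2 or more in an intron's excised share, 47 (13.7%) had less mature RNA and 18 (5.23%) more, and of the 297 with a largest fall under 0.1, 9 (3.03%) had less and 31 (10.4%) more. Ribosomal protein genes are part of these counts. By number of chosen introns the order was not steady. Less mature RNA was found in 3.70% of genes with 1, 14.0% with 3 or 4 and 8.26% with 5 or more.

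RPS29, a small ribosomal subunit protein, had 129, 117 and 166 TPM at 45 min, against 516, 482 and 583 TPM at 15 min. The groups were far apart, with a log2 change of -1.94 ± 0.22 (SE, n = 3 each, limma adjusted p = 6.3e-04). RPL37 and RPL38, of the large subunit, had log2 changes of -2.02 ± 0.42 (adjusted p = 0.0098) and -1.69 ± 0.25 (adjusted p = 0.0023). ELOB, a subunit of elongin, had 36.8, 6.93 and 21.1 TPM at 45 min, against 97.1, 86.7 and 62.8 TPM at 15 min, a log2 change of -2.12 ± 0.44 (adjusted p = 0.0098), and -1.50 without 45 min replicate 2. ATP5MK, a small subunit of ATP synthase, had 15.6, 0 and 17.2 TPM, against 62.7, 41.9 and 66.4 TPM at 15 min. The middle value is from the 45 min library that stands apart from the others, and without it the log2 change of ATP5MK was -1.71 in place of -3.08 (adjusted p = 0.021 with it). The call of ATP5MK was lost without 15 min replicate 1 or 3.

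The 5 host genes with the largest rises were RBM22, NOP2, UBE2Q1, NOP56 and M6PR. NOP56, a core protein of the small nucleolar ribonucleoproteins, had 877, 709 and 747 TPM at 45 min, against 338, 312 and 284 TPM at 15 min (log2 change 1.32 ± 0.17, limma adjusted p = 0.0011). NOP2, a ribosomal RNA methyltransferase, had 231, 194 and 175 TPM, against 63.4, 84.5 and 76.6 TPM (1.41 ± 0.19, adjusted p = 0.0015). In both, all 45 min libraries were above all 15 min libraries. RBM22, a spliceosome protein, rose by 1.43 ± 0.24 (adjusted p = 0.0037), UBE2Q1, a ubiquitin-conjugating enzyme gene, by 1.38 ± 0.27 (adjusted p = 0.0068) and M6PR, a mannose 6-phosphate receptor gene, by 1.28 ± 0.24 (adjusted p = 0.0058). These 5 genes host a dipping intron and had more mature RNA at 45 min than at 15 min. The most abundant host genes that did not pass were RPS2 (-0.82 ± 0.33, adjusted p = 0.14), RPS24 (-0.62 ± 0.26, adjusted p = 0.16) and RPL4 (-0.09 ± 0.17, adjusted p = 0.79). Ribosomal protein genes have many near-identical pseudogene copies, so their TPM depend on how reads were assigned.

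These counts depend on the fit. With the 6 libraries of 15 and 45 min alone, limma passed 0 of 16901 genes in either direction, host genes included, while 2760 had an unadjusted p under 0.05 in that fit. Median-ratio scaling gave 15 host genes higher and 109 lower, and quantile normalization gave 27 higher and 104 lower, so that the balance of host genes turned to lower under both. Without 45 min replicate 2 it was 55 higher and 42 lower, and without 15 min replicate 2 it was 54 higher and 44 lower.

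The ratio of primary to mature RNA is the gene-level counterpart of the excised share. By limma, 584 of 1054 host genes fell between 15 and 45 min (55.4%), where 54.8% of all 13879 genes tested did, and 18 rose (1.71%), where 0.728% of all genes did, while 2646 of 3055 other genes with introns fell (86.6%) and 0 rose. The median log2 change was -0.95 in host genes, -1.57 in the other genes with introns and -1.36 over all genes. Thus a smaller share of host genes than of other genes with introns had a lower unspliced share at 45 min. Of the 65 ribosomal protein genes 14 fell and 4 rose as deposited, whereas 34 rose and 0 fell with median-ratio scaling. For the 37 respiratory chain host genes it was 9 lower and 4 higher as deposited, and 0 lower and 17 higher with that scaling. Median-ratio scaling, which moves the median of all genes to -0.01, gave 202 host genes higher and 10 lower. Relative to all genes the host median was higher by 0.41 as deposited and by 0.44 with that scaling.

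ATP5MK rose most in this ratio (3.985 ± 1.42, limma adjusted p = 0.030, and 1.55 without 45 min replicate 2). ELOB (2.08 ± 0.48, adjusted p = 0.0034, and 1.44 without 45 min replicate 2), KRTCAP2, an oligosaccharyltransferase subunit (1.46 ± 0.43, adjusted p = 0.013), GPX4, a lipid peroxide reductase (1.35 ± 0.41, adjusted p = 0.014), and RPS29 (1.24 ± 0.26, adjusted p = 0.0021) followed. Leaving out 1 library ended some of these calls: ATP5MK without any of the 15 min replicates, KRTCAP2 without 45 min replicate 1 (1.22) or 15 min replicate 1 (1.015), and GPX4 without 45 min replicate 1 (0.92) or 15 min replicate 3 (1.198). The unspliced share of RPS29, its primary TPM as a percent of both, was 8.16%, 9.38% and 10.5% at 45 min, against 3.602%, 4.47% and 4.49% at 15 min, and the 2 times did not overlap. RBM22 fell most (-2.90 ± 0.41, adjusted p = 3.4e-04), followed by PMF1, a kinetochore protein (-2.85 ± 1.06, adjusted p = 0.037), the chromatin regulator ASXL2 (-2.64 ± 0.47, adjusted p = 9.1e-04), the zinc finger gene ZPR1 (-2.36 ± 0.39, adjusted p = 5.9e-04) and TXLNG (-2.35 ± 0.38, adjusted p = 5.8e-04). The call of PMF1 was lost under both scalings (-1.86 with quantile normalization and -1.46 with median-ratio scaling), without 45 min replicate 1 (-3.06) or 3 (-2.06) and without 15 min replicate 1 (-1.67), and that of ZPR1 under both scalings (-0.94 and -0.99). RPS2 (0.28 ± 0.32, adjusted p = 0.47), RPS24 (0.26 ± 0.28, adjusted p = 0.43) and RPS16 (-0.39 ± 0.27, adjusted p = 0.24) were the most abundant host genes that did not pass. With the libraries of 45 and 15 min alone, 311 host genes fell and 3 rose. The 18 host genes that rose became 11 without 45 min replicate 2, 7 without 15 min replicate 1 and 9 without 15 min replicate 2.

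Relative to all genes, host genes weighed more in total RNA than in 45 min labelled RNA. By limma on all 18 libraries, 302 of 1055 host genes tested (28.6%) were higher in total RNA, where 6.6% of all 16580 genes tested were, and 228 (21.6%) were lower, where 38.4% of all genes were. Of the 3055 other genes with introns, 89 were higher (2.91%) and 1741 lower (57.0%). The median log2 change was 0.15 in host genes, against -1.01 in the other genes with introns and -0.77 over all genes. Without the poly(A) library the host median was -0.11 and the median over all genes -0.94, with 219 host genes higher and 319 lower. Relative to all genes the host median was 0.92 higher, and 0.83 higher without that library. Median-ratio scaling gave 649 host genes higher and 73 lower, with the host median 1.13 above that of all genes. TPM rescaled over mature transcripts gave 251 higher and 261 lower, with the host median 0.88 above that of all genes.

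Cytosolic ribosomal proteins were higher in total RNA in 60 of 65 genes and lower in 0, with a median log2 change of 1.81. Of 37 respiratory chain host genes, 28 were higher and 1 lower (median 1.58), and of 24 proteasome host genes, 12 were higher and 0 lower (median 0.61). The RNA polymerase host genes were split, with 5 of 12 higher and 5 lower as deposited, and 7 higher and 1 lower with median-ratio scaling. Of the 344 genes with a fall of 0.2 or more in an intron's excised share, 163 (47.4%) were higher and 28 (8.14%) lower. Of the 298 with a largest fall under 0.1, 40 (13.4%) were higher and 109 (36.6%) lower. The number of chosen introns went the same way: 48 of 109 genes with 5 or more (44.0%) were higher and 5 lower, and 103 of 515 genes with 1 (20.0%) were higher and 154 lower.

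RPL37, a protein of the large ribosomal subunit, had 1566, 898 and 746 TPM in the poly(A), RNase H and Ribo-Zero total libraries, against 48.2, 78.6 and 136 TPM at 45 min (log2 change 3.65 ± 0.43, limma adjusted p = 5.0e-06). Every total library was above every 45 min library. ATP5MK had the largest rise, 4.80 ± 0.70 (adjusted p = 3.4e-05), and without 45 min replicate 2 it was 3.43. COX7A2, a cytochrome c oxidase subunit (3.90 ± 0.83, adjusted p = 0.0010), and S100A10, an annexin-binding protein (3.67 ± 0.80, adjusted p = 0.0013), were at 0.47 and 0 TPM in that library, and without it the log2 changes were 2.30 for COX7A2 and 2.14 for S100A10. With 1 of the other 45 min libraries left out in its place they were 4.67 or more and 4.41 or more.

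Of the 10 genes with the largest dips, RPS16, IMPDH2, DCXR, POLD2, POLR2G and TUBG1 were higher in total RNA. DCXR had 230, 101 and 105 TPM in total RNA, against 56.5, 48.2 and 43.1 TPM at 45 min (1.44 ± 0.29, limma adjusted p = 5.6e-04). IMPDH2 had 214, 135 and 142 TPM, against 100, 51.0 and 89.0 TPM (1.05 ± 0.27, adjusted p = 0.0042). The groups did not overlap in either gene. The other 4 did not pass, with log2 changes of 0.57 in SHMT2, 0.43 in PRMT1, 0.05 in JTB and -0.00 in DYNLL1.

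Some host genes weighed far less in total RNA. The largest falls were in SDHAP1 (-3.64 ± 0.29, limma adjusted p = 1.5e-07), a transcribed pseudogene that shares sequence with SDHA, so that its reads are uncertain, and in the transcriptional regulators PPARGC1B (-2.997 ± 0.29, adjusted p = 8.3e-07), MTF1 (-2.75 ± 0.33, adjusted p = 5.1e-06), SRCAP (-2.71 ± 0.46, adjusted p = 1.3e-04) and ZNF557 (-2.67 ± 0.24, adjusted p = 4.1e-07). ZNF557 had 7.74, 7.93 and 8.87 TPM in total RNA, against 58.1, 56.1 and 57.9 TPM at 45 min. Each of them holds an intron with a dip although its RNA weighs little in total RNA. SRCAP had 54.8, 52.4 and 7.91 TPM in the poly(A), RNase H and Ribo-Zero total libraries, against 189, 202 and 191 TPM at 45 min, and without the Ribo-Zero library its log2 change was -1.84. PIEZO1 fell as well (-1.34 ± 0.33, adjusted p = 0.0030). Abundant host genes that did not pass were PTMA (0.72 ± 0.29, adjusted p = 0.0502, though it passed at 0.996 without the Ribo-Zero library), EIF4A1 (-0.31 ± 0.25, adjusted p = 0.33) and EEF2 (0.25 ± 0.27, adjusted p = 0.47), and FASN had -0.94 ± 0.38 (adjusted p = 0.053).

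**Figure D4:**
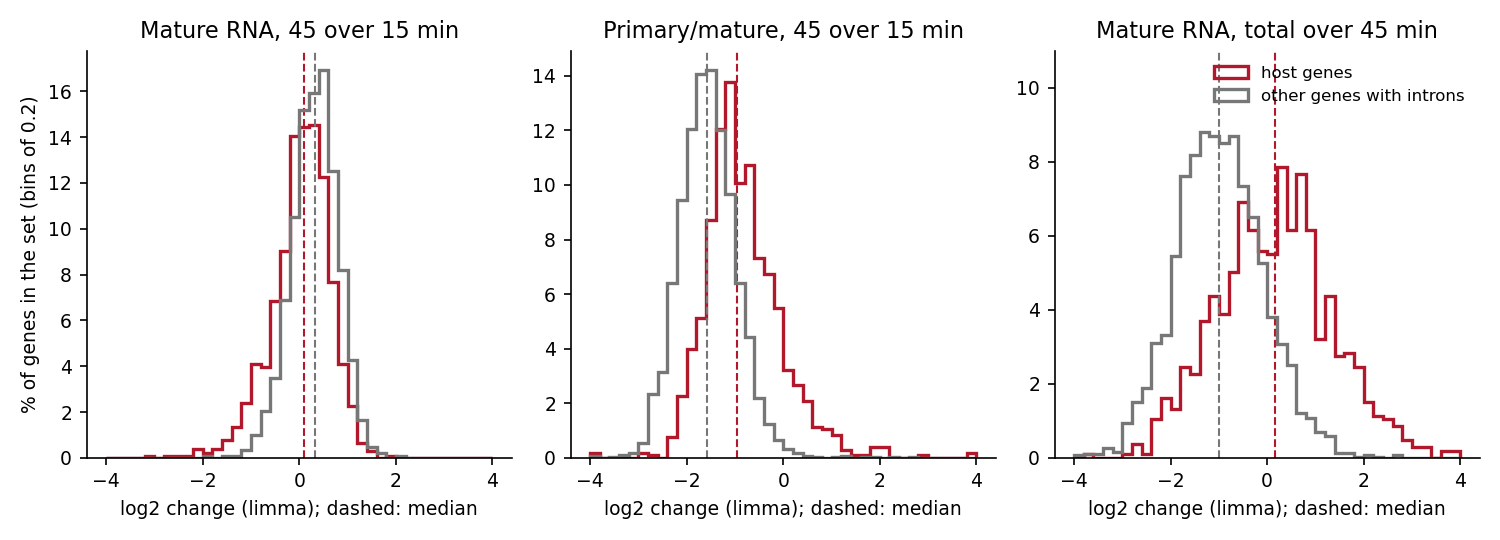
Distribution of limma log2 changes over host genes of dipping introns (red) and over the other genes with introns at or above 0.5 at 60 min (grey), as a percent of each set in bins of 0.2, for mature RNA at 45 over 15 min, the primary to mature ratio at 45 over 15 min, and mature RNA in total over 45 min labelled RNA; dashed lines are medians and values beyond 4 are drawn at the edge. The medians of host and other genes are 0.10 and 0.33 on the left, -0.95 and -1.57 in the middle, and 0.15 and -1.01 on the right.

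Values of single libraries follow for some host genes. Those at 7.5, 30 and 60 min come from the libraries that chose the introns and are given without a test. RPS16 had 2365, 2267 and 3036 mature TPM after 7.5 min, 1475, 1510 and 1229 after 15 min, 922, 817 and 657 after 30 min, 793, 735 and 797 after 45 min, and 679, 737 and 717 after 60 min, beside 5114, 2725 and 1434 in the poly(A), RNase H and Ribo-Zero total libraries. By mean, its level went down with every longer labelling time. The mean was highest in total RNA, where only the poly(A) library was above all 7.5 min libraries. DCXR had 44.7, 51.7 and 31.0 TPM at 30 min, against 121, 105 and 125 TPM at 7.5 min, and its unspliced share was 33.2%, 20.9% and 23.01% at 30 min, against 7.14%, 5.60% and 6.57% at 7.5 min. FASN showed no such order in mature RNA, with 124, 191 and 97.1 TPM at 30 min, against 179, 119 and 140 TPM at 7.5 min, yet its unspliced share was 37.9%, 17.5% and 21.2% at 30 min, against 13.2%, 13.3% and 11.9% at 7.5 min. NOP56 had 953, 727 and 825 TPM at 60 min, against 361, 276 and 326 TPM at 7.5 min.

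Over all 1056 host genes, mature RNA took 20.9 ± 2.88% of the mature TPM of a library after 7.5 min, 14.8 ± 0.184% after 15 min, 12.5 ± 0.148% after 30 min, 12.4 ± 0.668% after 45 min and 12.8 ± 0.644% after 60 min (SD over 3 libraries). In total RNA it took 20.6 ± 7.93%, with 29.7% in the poly(A), 16.9% in the RNase H and 15.2% in the Ribo-Zero library. The median unspliced share of a host gene was 22.7 ± 0.847%, 26.2 ± 2.70%, 24.4 ± 2.42%, 15.9 ± 2.14% and 12.9 ± 1.70% over the same times. For the other genes with introns it was 36.8 ± 0.968%, 33.0 ± 2.80%, 22.2 ± 1.98%, 14.0 ± 3.34% and 10.9 ± 2.71%. Host genes were the less unspliced at 7.5 min and slightly the more unspliced in each library from 30 min on. Spearman's rho of mature TPM with the mean of total RNA, across the 4112 genes, was 0.655 ± 0.0472, 0.568 ± 0.0609, 0.531 ± 0.00632, 0.576 ± 0.0599 and 0.628 ± 0.00797 over the same times (mean ± SD of 3 libraries). The mean was lowest at 30 min, and the libraries of 7.5 min (0.611 to 0.705) overlapped those of 60 min (0.620 to 0.636). No library of unlabelled RNA taken through the streptavidin step was analysed here, so the part of carried-over unlabelled RNA in these values was not tested.

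**Figure D5:**
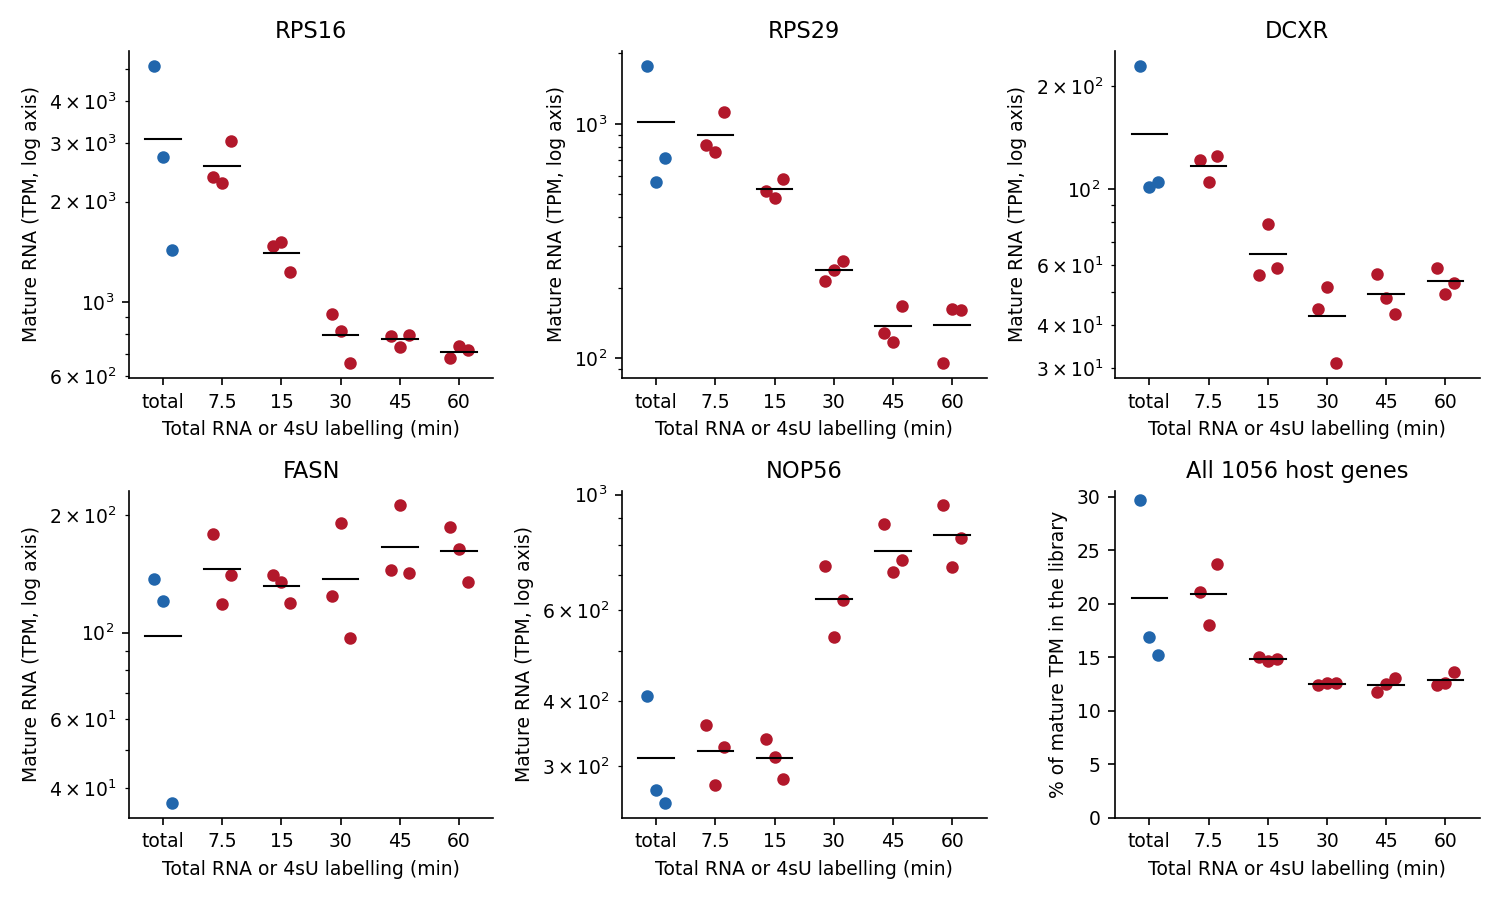
Mature TPM (log axis) of 5 host genes in each library of total RNA (blue) and of 7.5 to 60 min labelled RNA (red), and, in the last panel, the percent of a library's mature TPM taken by all 1056 host genes (axis from 0); each point is 1 library and each black line the mean of 3. RPS16, RPS29 and DCXR stand lower at 30 min than at 7.5 min, NOP56 stands higher, and the host genes take 12.5% at 30 min and 20.9% at 7.5 min.

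The authors' measures from libraries of cell fractions and of ribosome profiling, and their copies per cell, were not used by the rule. The log2 ratio of cytoplasmic to nuclear mature RNA had a median of 0.21 in the 1056 host genes and -0.04 in the 3056 other genes with introns, and the log2 ratio of polysomal to cytosolic RNA 0.19 and -0.30. With the 4112 genes in 5 equal bins by the polysomal ratio, 61.1% of the highest bin and 9.36% of the lowest were host genes. By the authors' translation score it was 57.5% and 9.60%, by their copies per cell 60.0% and 9.002%, and by the cytoplasmic ratio 49.6% and 14.5%. Copies per cell had values for only 1053 host genes and 3053 other genes. Host genes were thus more abundant, more cytoplasmic and more polysomal than the other genes, as a description with no test.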

How the data were processed

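The 18 libraries of HEK293 RNA were analysed from the processed values. RSEM 1.2.11, Bowtie 1.0.1 and the hg19 build are named in the submitters' processing notes. The authors deposited TPM per gene for mature and primary transcripts, per the file headers from RSEM on GENCODE release 19 with 1 extra unspliced isoform per gene. TPM carry no read depth, so precision is known only from replicates. The authors' excised share is a fraction from junction reads (bam2ssj), averaged over 3 replicates. GC content is a fraction, lengths and distances are on a log10 scale, and splice site, translation and copy number values are scores, as the authors deposited them. Cytoplasmic to nuclear and polysomal to cytosolic values are log2 ratios made by the authors. Their synthesis and degradation rates come from INSPEcT on the labelled libraries, with no unit given, so only ratios and ranks were used.

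Introns were chosen by the rule in the opening. Their positions come from the authors' table (hg19, 1-based). Symbols came from a table of current gene names, with 2360 of the 2374 introns matched, and junction letters from GENCODE release 29 transcripts (GRCh38), found by gene identifier and an intron length unique in the gene.

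Gene levels were compared with limma (version 3.58.1, R 4.3.3, eBayes with trend) on log2(TPM + 1), and for the primary to mature ratio with a pseudocount of 0.1, adjusted by Benjamini-Hochberg over all genes tested. A log2 change on these scales understates the change of low genes. Genes needed a mean of at least 1 TPM (and 0.1 TPM primary for the ratio). Labelled comparisons used the 15 labelled libraries, those with total RNA all 18. The scripts were tested on simulated data. Host genes were described by counts and medians beside all genes, and correlations across introns as descriptions. The alternatives were another pseudocount, other filters, quantile and median-ratio scaling, leaving out each replicate, fewer groups and a replicate block, and after seeing the data TPM rescaled over mature transcripts and each total library alone. Named introns were the 10 with the largest falls (1 per gene), 3 on each side of the limit, the largest fall per family with at least 3 introns, and hosts of 3 or more, of which those with most introns are given. Named genes per comparison were the 5 largest changes each way among those past 0.05 and the 3 most abundant not passing; FASN, PIEZO1 and the 10 hosts of the largest falls were added after their values were seen. A gene that the rule names is not reported here. The introns, families and tests were chosen with earlier results of these data known.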

Additional observations from a re-analysis of the deposited data

How the results depend on the processing

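The number of chosen introns was 1528 with a fall of at least 0.1 and 870 with at least 0.8 at 60 min, and it stayed within 1.5 times of 2374 when the fall was taken from 15 to 30 min. For mature RNA at 45 against 15 min, host genes higher and lower were 27 and 104 with quantile normalization, 15 and 109 with median-ratio scaling, 29 and 89 with TPM rescaled over mature transcripts (chosen after seeing the data), and 0 and 0 with the 2 times alone. For the primary to mature ratio they were 164 and 10 with quantile normalization, 202 and 10 with median-ratio scaling, and 3 and 311 with the 2 times alone. For total against 45 min labelled RNA they were 459 and 123 with quantile normalization, 649 and 73 with median-ratio scaling, and 182 and 142 with the 2 groups alone. With TPM rescaled over mature transcripts (chosen after seeing the data) they were 251 and 261 for total RNA. Leaving out 1 replicate gave 54 to 65 higher and 42 to 65 lower for mature RNA, 7 to 19 higher and 410 to 609 lower for the ratio, and 219 to 347 higher and 162 to 319 lower for total RNA. The balance of higher and lower host genes thus moved with the scaling. The replicate letters were not known to pair the samples: deviations of libraries with the same letter correlated at 0.20, -0.01 and 0.15 between 45 and 15 min, and with a replicate block 162 host genes were higher and 126 lower in mature RNA. The block kept both counts for the ratio within 1.5 times.

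The host median relative to all genes in mature RNA at 45 against 15 min was -0.11, and 0.10 with no filter on low TPM, where unexpressed genes set the median of all genes to 0. The synthesis rate ratio was 0.958 without ribosomal protein genes, against 1.05 with them. RPS16 passed with the opposite sign in the primary to mature ratio (1.00) and EIF4A1 in total RNA (0.64) under median-ratio scaling. Of 520 values of named genes under alternatives, 476 kept their direction and side of the threshold, 32 lost the call, 10 gained it and these 2 reversed. The cause of these shifts was not tested. The depth behind a single intron's share is unknown, since the table gives no read counts.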
